A study of Mus musculus with 7 samples.

Results

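Nr4a1, Nr4a2, Nr4a3, Egr1, Egr2 and Egr3 are genes of transcription factors that T cells switch on early after the T cell receptor is engaged. They were taken by name from the gene table, 6 genes of 27998, and were chosen with earlier results of these data known. Transcripts were counted as unique molecular identifiers (UMIs) in single spleen T cells of C57bl/6 mice given lymphocytic choriomeningitis virus (Armstrong), in 7 droplet libraries. GP66+ cells are helper T cells that bind the class II molecule I-Ab loaded with the viral peptide GP66. The GP66+ cells formed 5 libraries of 1 sample each: Thpok-deleted cells (Ox40-Cre+ Thpokfl/fl RosaYFP+) and Thpok-sufficient cells (Ox40-Cre+ Thpokwt/wt RosaYFP+), both at days 30 and 7 after infection, and wild type cells at day 7. Total CD44high cells, the activated T cells of wild type mice at day 7, formed 2 libraries (replicates 1 and 2), in which CD4+ and CD8+ cells were sorted apart and mixed in equal parts. The Thpok-sufficient controls carry the Cre and the reporter too, and the Ox40 promoter is active in T cells once they are activated, so that deletion follows activation. Of the GP66+ sorts only that of wild type cells is labelled as gated on CD4, and neither the animals per library nor their age is stated. The p-values therefore measure how these libraries vary, and that variation may be partly technical.

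Nr4a1 (Nur77), Nr4a2 (Nurr1) and Nr4a3 (Nor1) are orphan nuclear receptors that act without a known physiological ligand, so that their activity follows their amount. In T cells they are induced by antigen receptor signals through calcium and NFAT, and mouse work links them to restraint of effector function in persistently stimulated cells. Egr1, Egr2 and Egr3 are zinc finger factors induced by signals of the same receptor, in part through its Ras and ERK branch. Egr2 and Egr3 are known in mice for limiting T cell activation and for a part in follicular helper cells, the CD4+ cells that help B cells. The messenger RNAs of both families are short lived.

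The 7 libraries held 725 to 6845 cells, with 1551772 to 32985497 UMIs in cells. Median UMIs per cell were lowest in the libraries of day 30, with 2440 in Thpok-deleted and 2017 in Thpok-sufficient cells, against 4025 to 5900 in the 5 libraries of day 7. Zbtb7b, the gene of Thpok, had 1 UMI in each Thpok-deleted library, against 32 UMIs at day 30 and 391 UMIs at day 7 in the Thpok-sufficient ones. A cell was called CD8-like from a Cd8a or Cd8b1 UMI without Cd4 and CD4-like from a Cd4 UMI without either. The total libraries gave 3480 and 1074 CD8-like and 1440 and 550 CD4-like cells. Markers of red blood cells summed to 6237 counts per 1000000 UMIs (CPM) in Thpok-deleted cells of day 30 and to at most 271 CPM in the other 8 sums of library and class, with all 5 markers present there. Their part in the values of that library was not tested. B cell markers summed to at most 12.5 CPM in any of the 9 sums. Libraries shared at most 25 cell barcodes, in the pair of total replicate 1 and wild type GP66+ cells, where chance gives 20.5, and 15 in the pair of total replicate 2 and Thpok-sufficient GP66+ cells of day 7, where chance gives 6.20. These cells stayed in the counts.

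The windows from 250 bases before to 50 bases after the transcription start are shown because the 3 Nr4a genes ran together across the samples while Egr2 ran less with them. The sequences are from RefSeq on GRCm38.p6, and a window is shown for 4 of the 6 members. Egr2 alone stands for its family here, so that the windows do not compare the 2 families. Capitals mark the short form of the cAMP response element, TGACG, or its reverse complement CGTCA, searched on both strands, the core that factors of the CREB and ATF families bind.
Nr4a1, chr15:101266596-101266895, plus strand: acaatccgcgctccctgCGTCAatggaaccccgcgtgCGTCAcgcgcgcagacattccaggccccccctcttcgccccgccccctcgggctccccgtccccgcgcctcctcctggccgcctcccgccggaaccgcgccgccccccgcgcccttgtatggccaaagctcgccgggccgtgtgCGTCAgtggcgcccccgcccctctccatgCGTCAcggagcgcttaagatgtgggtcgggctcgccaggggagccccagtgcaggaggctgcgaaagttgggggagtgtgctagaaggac
Nr4a2, chr2:57123954-57124253, minus strand: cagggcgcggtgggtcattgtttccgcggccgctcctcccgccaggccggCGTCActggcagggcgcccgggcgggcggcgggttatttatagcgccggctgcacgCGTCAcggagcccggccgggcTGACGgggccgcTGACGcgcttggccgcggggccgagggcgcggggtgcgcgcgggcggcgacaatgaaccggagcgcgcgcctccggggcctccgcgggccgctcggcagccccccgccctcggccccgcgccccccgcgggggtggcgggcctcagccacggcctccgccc
Nr4a3, chr4:48045055-48045354, plus strand: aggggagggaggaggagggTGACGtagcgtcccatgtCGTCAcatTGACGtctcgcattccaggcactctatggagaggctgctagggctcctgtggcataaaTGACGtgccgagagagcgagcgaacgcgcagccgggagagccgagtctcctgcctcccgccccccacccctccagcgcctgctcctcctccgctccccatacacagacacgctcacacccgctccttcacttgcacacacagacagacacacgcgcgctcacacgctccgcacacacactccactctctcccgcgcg
Egr2, chr10:67535249-67535548, plus strand: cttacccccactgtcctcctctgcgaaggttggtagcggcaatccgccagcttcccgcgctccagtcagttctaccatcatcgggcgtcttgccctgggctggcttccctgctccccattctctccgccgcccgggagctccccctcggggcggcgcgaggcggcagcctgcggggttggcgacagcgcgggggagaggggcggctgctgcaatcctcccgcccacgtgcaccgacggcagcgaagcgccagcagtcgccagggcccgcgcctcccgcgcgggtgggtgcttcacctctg
Each Nr4a window held 4 matches of this short element. At least 1 match was present in 20.8% of all 32851 windows of this length, and 4 or more in 0.231%. G and C made up 72.3% (Nr4a1), 81.7% (Nr4a2), 64.7% (Nr4a3) and 72.0% (Egr2) of the windows shown. These shares of all windows were not matched for G and C content. The Egr2 window shown, the one at its annotated gene start, held 0, while 3 of the 5 Egr2 windows held at least 1. The full palindrome TGACGTCA (1.79% of windows), the AP-1 motif TGANTCA (7.81%), the Nr4a monomer motif AAAGGTCA (1.51%) and the Egr motif GCGTGGGCG (0.612%) had no match in the 4 windows shown, on either strand. TATAAA, read on either strand and present in 13.6% of windows, matched once, in Nr4a2. A match describes these letters and shows neither binding nor a cause.

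**Figure D1:**
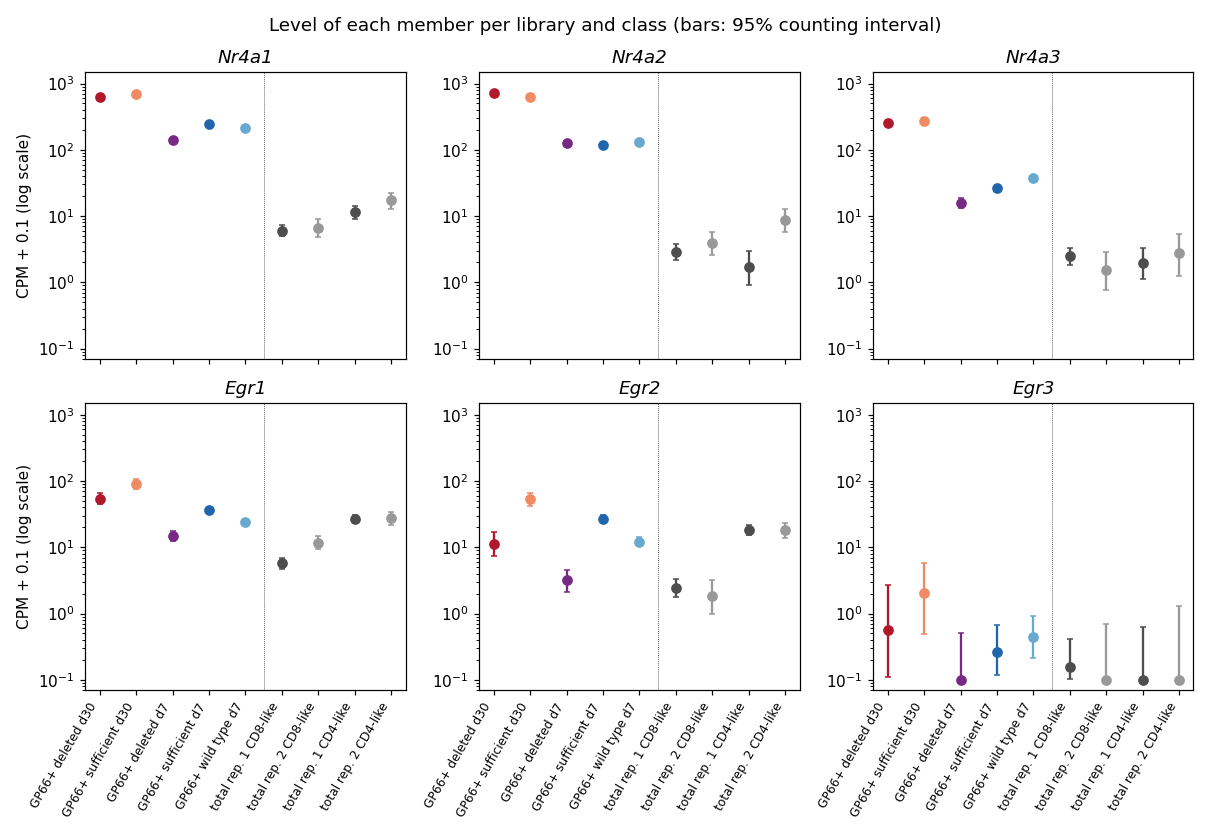
Level of each member as CPM plus 0.1 on a log axis, per library and class, with 95% exact Poisson intervals for counting error. The 3 Nr4a genes separate the GP66+ libraries (left of the dotted line) from the total libraries, while Egr1 and Egr2 of total CD4-like cells lie among the GP66+ libraries and Egr3 is near 0 in all.

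Across the 9 sums of library and class the Nr4a genes spanned a wider range, as ratios, than the Egr genes. Levels here are UMIs of a gene in CPM of all UMIs of its sum, and compare 1 gene across samples. Nr4a1 was at 619 CPM in Thpok-deleted and 693 CPM in Thpok-sufficient cells of day 30, whose counting intervals overlap. At day 7 it was at 138 CPM in Thpok-deleted, 242 CPM in Thpok-sufficient and 211 CPM in wild type GP66+ cells, each apart from the next by its counting interval. It was at 5.93 and 6.56 CPM in CD8-like and 11.5 and 17.1 CPM in CD4-like cells of the total libraries. The lowest GP66+ library was thus above the highest total class by more than the counting error.

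Nr4a2, which orders the samples by day and then by sort, was at 710 CPM in Thpok-deleted and 617 CPM in Thpok-sufficient cells of day 30. At day 7 its 3 GP66+ libraries lay close together, with 128 CPM in Thpok-deleted, 116 CPM in Thpok-sufficient and 133 CPM in wild type cells. Neighbours in level had overlapping intervals. The total classes were at 2.79 and 3.84 CPM (CD8-like) and at 1.60 and 8.55 CPM (CD4-like), the lower CD4-like value resting on 11 UMIs.

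Nr4a3 was at 257 CPM in Thpok-deleted and 272 CPM in Thpok-sufficient cells of day 30. At day 7 it was at 15.6 CPM in Thpok-deleted, 26.1 CPM in Thpok-sufficient and 37.5 CPM in wild type GP66+ cells. In the total libraries it was at 2.39 and 1.44 CPM in CD8-like and 1.89 and 2.63 CPM in CD4-like cells, all with overlapping intervals. Nr4a3 thus had a wide gap between the days and no clear order among the total classes.

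Egr1 was at 54.2 CPM in Thpok-deleted and 90.9 CPM in Thpok-sufficient cells of day 30. At day 7 it was at 14.7 CPM in Thpok-deleted, 36.5 CPM in Thpok-sufficient and 24.0 CPM in wild type GP66+ cells. Total CD8-like cells had 5.65 and 11.7 CPM and total CD4-like cells 26.8 and 27.3 CPM. The total CD4-like cells therefore lay between the intact GP66+ libraries of day 7 and not below them.

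Egr2 was at 11.2 CPM in Thpok-deleted and 52.8 CPM in Thpok-sufficient cells of day 30. At day 7 it was at 3.05 CPM (27 UMIs) in Thpok-deleted, 27.0 CPM in Thpok-sufficient and 12.1 CPM in wild type GP66+ cells. Total CD8-like cells had 2.34 and 1.76 CPM and total CD4-like cells 18.4 and 18.1 CPM. The Thpok-deleted library of day 7 overlapped total CD8-like cells of replicates 1 and 2 in its interval. Egr3, the close relative of Egr2, had 1 and 3 UMIs in the Thpok-deleted and Thpok-sufficient libraries of day 30 and 0 to 5 UMIs in those of day 7. In the total libraries it had 1 UMI, in a CD8-like cell, and it was too low for any test.

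Total replicate 1 joins 3 capture wells. In their CD4-like cells Nr4a1 was at 8.46, 10.6 and 13.2 CPM, Egr1 at 26.0, 25.1 and 28.1 CPM and Egr2 at 20.8, 17.9 and 17.7 CPM, with overlapping counting intervals. In their CD8-like cells Nr4a1 was at 6.25, 2.73 and 7.57 CPM and Nr4a3 at 2.55, 0.210 and 3.55 CPM, and for both genes wells 2 and 3 differed by more than counting error. RNA outside cells followed the cells. In barcodes with 1 to 10 UMIs, taken as empty droplets, Nr4a1 was at 1210 CPM (Thpok-deleted) and 1463 CPM (Thpok-sufficient) in the libraries of day 30. In the GP66+ libraries of day 7 it was at 228 CPM (Thpok-deleted), 455 CPM (Thpok-sufficient) and 215 CPM (wild type), and in the total libraries at 8.66 and 34.3 CPM. Such droplets held 2.06 to 2.93 UMIs on average. How much of the UMIs of a cell they account for was not tested.

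Among CD4-like cells of day 7, the 3 Nr4a genes were higher in GP66+ than in total CD44high cells, and the tested Egr genes did not pass the threshold. Of the 6 members 5 could be tested, and 3 of those 5 were called higher in edgeR's quasi-likelihood test (adjusted p under 0.05 over 10264 genes), where 0.477% of all genes tested were called higher. Nr4a1 was at 229 CPM in Thpok-sufficient and 211 CPM in wild type GP66+ CD4-like cells, against 11.5 and 17.1 CPM in the total ones, a log2 fold change of 4.05 ± 0.21 (SE, n = 2 against 2, adjusted p = 0.00862). Nr4a2 was at 117 and 139 CPM in GP66+ cells, against 1.60 and 8.55 CPM in total cells, with a log2 fold change of 4.97 ± 0.59 (adjusted p = 0.0448). Nr4a3 was at 26.1 and 40.1 CPM in GP66+ cells, against 1.89 and 2.63 CPM in total cells, with a log2 fold change of 3.98 ± 0.29 (adjusted p = 0.0170). The groups do not overlap for any Nr4a gene. The share of all tested genes without overlap was not counted, here or in the comparisons below.

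Egr1 was at 37.8 and 23.1 CPM in GP66+ cells, Thpok-sufficient and wild type in that order, against 26.8 and 27.3 CPM in total CD4-like cells. Egr2 was at 28.5 and 12.3 CPM in GP66+ cells, against 18.4 and 18.1 CPM in total cells. For both genes 1 GP66+ library lay above and 1 below the total ones, and the log2 fold changes were 0.25 ± 0.30 (adjusted p = 0.760) and 0.24 ± 0.44 (adjusted p = 0.850). Without the Thpok-sufficient library both turned negative, at -0.24 and -0.58.

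Other early response genes went with the Nr4a genes in part. Of 15 such genes 2 rose, Tnfaip3, an inhibitor of NF-kappa B signalling (log2 fold change 4.09), and Cd69, a retention receptor induced by activation (2.54). Of 18 tested genes known to respond to tissue dissociation and handling 3 rose, Dusp1 (4.09), Junb (2.69) and Nfkbia (2.56), and the median of these 18 was 1.51, against 0.0022 over all genes. None of 17 genes of the signalling upstream passed, nor did any of 14 Egr partners and linked genes. Of 10 genes linked to Nr4a factors Ctla4, an inhibitory receptor, rose (2.14). The tetramer sort separates these groups as antigen specificity does, and the 2 cannot be told apart. All 3 Nr4a calls were lost without total replicate 1 (adjusted p = 0.194 to 0.374), and those of Nr4a1 and Nr4a3 without total replicate 2 (0.0538 and 0.145), with log2 fold changes of 3.75 to 4.28 in these fits for the calls lost. Nr4a2 kept its call without total replicate 2 at a log2 fold change of 6.33, against 4.02 without total replicate 1. It missed the threshold with all T cells of the GP66+ libraries (adjusted p = 0.0555) and with B-like and myeloid-like cells kept (0.0612).

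Among total activated cells, CD8-like cells had less Egr2, Egr1 and Nr4a1 than CD4-like cells of the same libraries. With the library as a block, 3 of 5 tested members were called lower in edgeR's quasi-likelihood test, where 19.5% of 10201 genes were called lower and 18.8% higher. Egr2 was lower in CD8-like cells in both libraries, with a log2 fold change of -2.99 ± 0.23 (SE, n = 2 pairs, adjusted p = 1.4e-27). Egr1 changed by -1.75 ± 0.17 (adjusted p = 3.7e-19), and Nr4a1 by -1.03 ± 0.20 (adjusted p = 5.7e-06). Both classes of each library came through the same capture, and neither class of Egr1, Egr2 or Nr4a1 overlaps the other in level. Nr4a2 (-0.15 ± 0.32, adjusted p = 0.763) and Nr4a3 (0.08 ± 0.40, adjusted p = 0.904) did not pass, on 11 to 49 UMIs and 8 to 42 UMIs a class. Both were higher in CD8-like cells in replicate 1 and lower in replicate 2, and Egr1 was at -2.12 in replicate 1 alone and -1.13 in replicate 2 alone. With 1 residual degree of freedom, the p-values of this fit lean on variation pooled over genes. With no block for the library, edgeR's quasi-likelihood test gave adjusted p-values of 0.00222 (Egr2), 0.0244 (Egr1) and 0.0382 (Nr4a1). The Nr4a1 call was lost when each cell was thinned to 1500 UMIs (adjusted p = 0.0960) and with DESeq2 (0.0756).

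Genes linked to the Egr factors were mostly lower in CD8-like cells too. Of 14 tested, 8 fell and 2 rose, and Rnf128 (GRAIL), a ubiquitin ligase of the anergy programme, changed by -3.05 and the cytokine signalling inhibitor Socs1 by -1.62. Of 11 genes linked to Nr4a factors 7 fell and 1 rose, among them the HMG-box factor gene Tox2 (-4.21) and, rising, the inhibitory receptor gene Havcr2 (2.60). Of 15 other early response genes 7 fell and 2 rose, with Cd40lg (-3.93), the helper ligand for B cells, and Tnfrsf4 (-3.60), the gene of Ox40, at the top. Of 17 dissociation genes 8 fell and 3 rose, Fos by -1.46 and Dusp1 by -1.05. Of 17 upstream genes 3 rose, the calcineurin subunit Ppp3ca by 1.26, and 4 fell, Nfatc1 by -1.11, shares near those of all genes tested.

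All 5 tested members were higher at day 30 than at day 7 in GP66+ cells, in 1 fit with day and genotype as terms. All 5 were called higher in edgeR's quasi-likelihood test, where 9.97% of 10812 genes were. Nr4a3 rose most, with 257 and 272 CPM at day 30, against 15.6, 26.1 and 37.5 CPM at day 7, a log2 fold change of 3.69 ± 0.23 (SE, n = 2 against 3, adjusted p = 0.00757). Nr4a2 rose by 2.57 ± 0.12 (adjusted p = 0.00628), Nr4a1 by 2.03 ± 0.17 (adjusted p = 0.00880) and Egr1 by 1.89 ± 0.26 (adjusted p = 0.0146). Egr2 rose by 1.77 ± 0.45 (adjusted p = 0.0472). Both libraries of day 30 lay above all 3 of day 7 for Nr4a1, Nr4a2, Nr4a3 and Egr1, while for Egr2 the groups overlap, since the Thpok-deleted library of day 30 was at the level of wild type cells of day 7 within counting error and below Thpok-sufficient cells of day 7.

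The day difference was also estimated within each genotype. For Nr4a3 it was 4.05 ± 0.29 in Thpok-deleted and 3.37 ± 0.22 in Thpok-intact cells, and for Nr4a2 2.48 ± 0.16 and 2.58 ± 0.13 in that order. Fitted within a genotype no gene passed the threshold (adjusted p = 0.110 and 0.0790 for Nr4a3). The term for a different day effect without Thpok was called for 0 of 11338 genes by edgeR, with 555 higher and 204 lower at an unadjusted p under 0.05, and for 6 genes, none of them a member, by DESeq2. For the 5 members it had adjusted p-values of 0.711 to 0.995.

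The genes known to respond to dissociation rose at day 30 as well, 10 of 19 with none falling, at a median log2 fold change of 1.68, against 0.03 over all genes. Atf3, a stress-induced factor, changed by 5.54, the heat shock gene Hspa1b by 4.08 and the antiproliferative factor Btg2 by 2.52. Of 15 other early response genes 6 rose and 0 fell, Nfkbid by 2.72 and Spry1, an inhibitor of ERK signalling, by 2.60. Of 17 upstream genes 6 rose, Crem, a factor that binds the cAMP response element, by 2.44, and 0 fell. Nrn1 (4.90) and Socs1 (2.37) were among 4 of 14 Egr-linked genes that rose, and 0 fell. Of 11 Nr4a-linked genes 2 rose and 0 fell, Bcl6, the master factor of follicular helper cells (2.63), and the inhibitory receptor Tigit (1.87). The part of cell handling in the rise of the members was not tested, and day of infection and day of sorting cannot be told apart.

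With each cell thinned to 1500 UMIs all 5 members were still called at day 30. Stricter cell calling kept 386 Thpok-deleted and 79 Thpok-sufficient cells of day 30, and Egr1 (adjusted p = 0.0683) and Egr2 (0.298) then missed the threshold, as Egr2 did in cells with a Cd4 UMI (0.185). Leaving out the Thpok-deleted library of day 7 or either library of day 30 left no gene called (adjusted p = 0.0736 to 0.289 for the members), at log2 fold changes of 1.68 to 4.05.

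Loss of Thpok was tested on the same 5 GP66+ libraries, and no member passed the threshold. In edgeR's quasi-likelihood test 0 of 5 tested members were called in either direction, where 1.11% of 10812 genes were, while 4 of 5 had an unadjusted p under 0.05 and DESeq2 called 1, Egr2. Egr2 had the largest estimate, with 11.2 and 3.05 CPM in Thpok-deleted cells of days 30 and 7, against 52.8 CPM in Thpok-sufficient cells of day 30 and 27.0 and 12.1 CPM in intact cells of day 7 (log2 fold change -2.58 ± 0.49, SE, n = 2 against 3, adjusted p = 0.0861). Taken over both days, the groups overlap. On the TMM scale the Thpok-deleted library of day 30 was at 11.19 CPM and the wild type library of day 7 at 10.96 CPM. Within each day the Thpok-deleted library was below the intact ones. The estimate was -2.65 ± 0.77 at day 7 and -2.45 ± 0.86 at day 30. Egr1 had an estimate of -1.01 ± 0.27 (adjusted p = 0.162), Nr4a3 of -0.68 ± 0.23 (adjusted p = 0.228) and Nr4a1 of -0.56 ± 0.17 (adjusted p = 0.196). Nr4a2 had 0.03 ± 0.12 (adjusted p = 0.944). Egr2 passed without the wild type library (adjusted p = 0.00257), with no filter on low counts (0.000276) and with DESeq2 (6.6e-05), and Egr1 in the first and second of these (0.0197 and 0.0170).

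The makeup of the GP66+ cells moved with the genotype. At day 7 CD8-like cells were 243 of 1319 Thpok-deleted, 49 of 2138 Thpok-sufficient and 39 of 2212 wild type cells. At day 30 they were 54 of 736 Thpok-deleted and 6 of 725 Thpok-sufficient cells. The genotype fit used all T cells of each library. Markers of follicular helper cells summed to 404 CPM at day 7 and 600 CPM at day 30 in Thpok-deleted cells, against 1011 and 1040 CPM at day 7 and 961 CPM at day 30 in intact cells. Th1 markers summed to 13084 and 23435 CPM in deleted cells and to 1616 to 2605 CPM in intact cells. The same markers summed to 31784 and 19674 CPM in total CD8-like and 3087 and 2952 CPM in total CD4-like cells. They thus do not tell Th1 cells from CD8-like ones. Cells with a Cxcr6 UMI and no Cxcr5 UMI made up 52.0% of Thpok-deleted cells of day 7, against 14.6% of Thpok-sufficient and 15.9% of wild type cells. Within these Cxcr6+ cells Egr2 was at 2.52 CPM in Thpok-deleted (12 UMIs), against 7.06 CPM in Thpok-sufficient (15 UMIs) and 2.43 CPM in wild type cells (6 UMIs), so that the deleted value lies between the intact ones. At day 30 the same cells had 8.57 CPM in Thpok-deleted and 33.4 CPM in Thpok-sufficient cells, on 8 and 5 UMIs.

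Few listed genes passed with genotype. Of 15 other early response genes Cd40lg fell (-2.21, adjusted p = 0.0335), and of 14 Egr-linked genes Socs3, an inhibitor of cytokine signalling, fell (-1.02, adjusted p = 0.0466). None of 17 upstream, 19 dissociation and 11 Nr4a-linked genes passed, and Tox2 had an estimate of -3.70 (adjusted p = 0.0674).

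**Figure D2:**
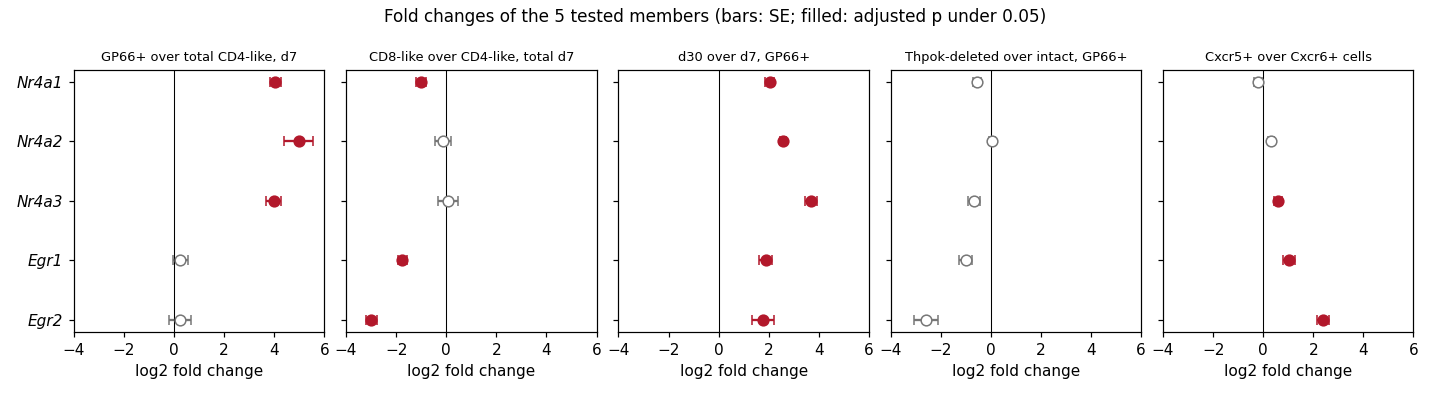
Log2 fold changes of the 5 tested members in 5 comparisons, with standard errors as bars and filled points where the adjusted p is under 0.05. All 5 were called higher at day 30, only the Nr4a genes in GP66+ over total cells, and none with loss of Thpok.

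Cells of 1 library were then split by chemokine receptor. Cxcr5 guides follicular helper cells to B cell follicles and Cxcr6 marks Th1 cells, and a cell was placed by a UMI of one and none of the other. Only CD4-like cells were split in the total libraries, and all T cells in the GP66+ libraries. The comparison used 6 libraries with the library as a block. Thpok-deleted cells of day 30 were left out for having 13 Cxcr5+ cells, and the Cxcr5+ groups used held 33 to 666 cells. Egr2, Egr1 and Nr4a3 were higher in Cxcr5+ cells, 3 of 5 tested members in edgeR's quasi-likelihood test, where 13.9% of 8040 genes were called higher and 13.8% lower.

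Egr2 was higher in Cxcr5+ cells in 6 of 6 libraries. In total CD4-like cells it was at 29.5 and 16.8 CPM in Cxcr5+, against 5.54 and 3.14 CPM in Cxcr6+ cells of replicates 1 and 2. At day 7 GP66+ Cxcr5+ cells had 18.2 CPM (Thpok-deleted, 4 UMIs), 38.2 CPM (Thpok-sufficient) and 12.2 CPM (wild type), against 2.52, 7.06 and 2.43 CPM in Cxcr6+ cells in the same order. Thpok-sufficient cells of day 30 had 74.6 CPM in Cxcr5+ and 33.4 CPM in Cxcr6+ cells. The log2 fold change was 2.38 ± 0.23 (SE, n = 6 pairs, adjusted p = 2.8e-07).

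Egr1 changed by 1.02 ± 0.23 (adjusted p = 0.00252) and was higher in Cxcr5+ cells in 5 of 6 libraries. Its exception was Thpok-sufficient cells of day 30, with 54.3 CPM in Cxcr5+ and 120 CPM in Cxcr6+ cells, on 8 and 18 UMIs. Nr4a3 changed by 0.58 ± 0.17 (adjusted p = 0.0157), higher in 4 of 6 libraries, and lost its call with DESeq2 (0.0615) and without the wild type (0.111) or the Thpok-sufficient library of day 7 (0.166). Without the library as a block Egr1 (0.362) and Nr4a3 (0.895) did not pass. Nr4a2 had 0.31 ± 0.13 (adjusted p = 0.0849) and Nr4a1 -0.20 ± 0.17 (adjusted p = 0.427).

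Nr4a1 was split between libraries. In intact GP66+ cells of day 7 it was at 205 CPM (Thpok-sufficient) and 173 CPM (wild type) in Cxcr5+ cells, against 339 and 287 CPM in Cxcr6+ cells. In Thpok-deleted cells of day 7 it was at 237 CPM in Cxcr5+ and 134 CPM in Cxcr6+ cells. In Thpok-sufficient cells of day 30 it was at 699 and 548 CPM in that order, with overlapping counting intervals. It was higher in Cxcr5+ cells in 3 of 6 libraries. Without the Thpok-deleted library of day 7, Nr4a1 was called lower in Cxcr5+ cells (-0.43, adjusted p = 0.0180).

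Of 7 tested Nr4a-linked genes 5 rose in Cxcr5+ cells and 0 fell, among them Tox2 (2.45), Cd200 (1.78) and Tox (1.65). Tox2 and Pdcd1, another of these 5 (0.998), are also among the follicular helper markers summed above. Their rise in Cxcr5+ cells is therefore no separate evidence on the Nr4a factors. Of 11 Egr-linked genes 5 rose and 1 fell, with Crtam at 1.70. Of 17 dissociation genes 5 rose and 3 fell, Zfp36 by 1.11 and Fos by 1.04. Of 14 other early response genes 3 rose and 4 fell, with the interleukin 2 receptor chain Il2ra at -4.39 and Cd69 at 0.61. Of 15 upstream genes 3 rose and Ppp3ca fell (-1.97).

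**Figure D3:**
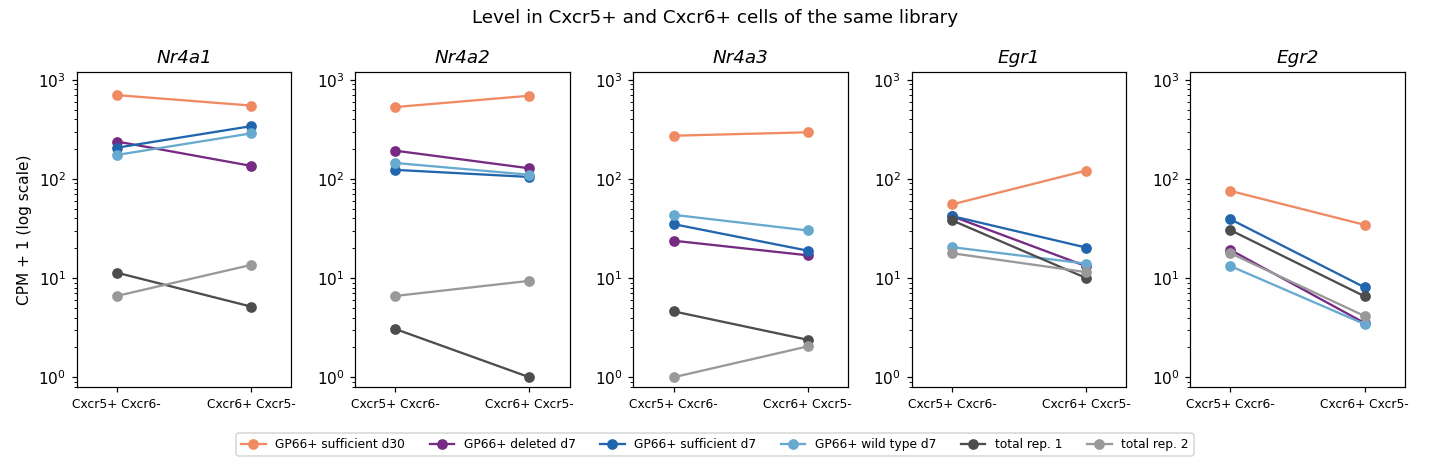
Level of the 5 tested members as CPM plus 1 on a log axis in Cxcr5+ and Cxcr6+ cells, with 1 line per library. Lines of the total libraries hold CD4-like cells only. All 6 lines of Egr2 run lower in Cxcr6+ cells, while the Nr4a1 lines cross.

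Counted by cell, more GP66+ cells held an Nr4a UMI at day 30 than at day 7, and positive cells held more. All cells were thinned to 1500 UMIs, which left out 46 Thpok-deleted and 153 Thpok-sufficient cells of day 30 and at most 5 cells of any other class. Nr4a1 had a UMI in 52.5% of Thpok-deleted and 50.3% of Thpok-sufficient cells of day 30. At day 7 it had one in 17.6% of Thpok-deleted, 27.4% of Thpok-sufficient and 24.8% of wild type GP66+ cells. In the total libraries it was found in 0.661% and 1.31% of CD8-like and 1.46% and 1.09% of CD4-like cells. Positive GP66+ cells of day 30 held 2.03 and 2.14 Nr4a1 UMIs on average (Thpok-deleted and Thpok-sufficient), against 1.21 to 1.45 at day 7.

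Nr4a2 had a UMI in 54.3% of Thpok-deleted and 43.7% of Thpok-sufficient cells of day 30, and in 11.9% to 15.8% of GP66+ cells of day 7. Nr4a3 had one in 30.7% and 28.8% of cells of day 30 and in 1.97% to 5.42% at day 7. Egr1 was seen in 7.39% and 8.39% of cells of day 30 and 2.20% to 4.96% at day 7. Egr2 was seen in 1.45% of Thpok-deleted and 6.99% of Thpok-sufficient cells of day 30, and at day 7 in 0.379%, 4.59% and 2.22% of Thpok-deleted, Thpok-sufficient and wild type GP66+ cells. Total CD4-like cells had an Egr2 UMI in 2.30% and 1.46%, and their CD8-like partners in 0.288% and 0.280%. Any member was seen in 83.8% of Thpok-deleted and 77.6% of Thpok-sufficient cells of day 30, against 31.8% to 41.0% of GP66+ cells of day 7 and 2.01% to 6.83% of total classes. Unthinned, these shares were 92.7% and 86.5% at day 30, 69.3% to 75.9% at day 7 and 5.03% to 13.3% in the total classes.

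**Figure D4:**
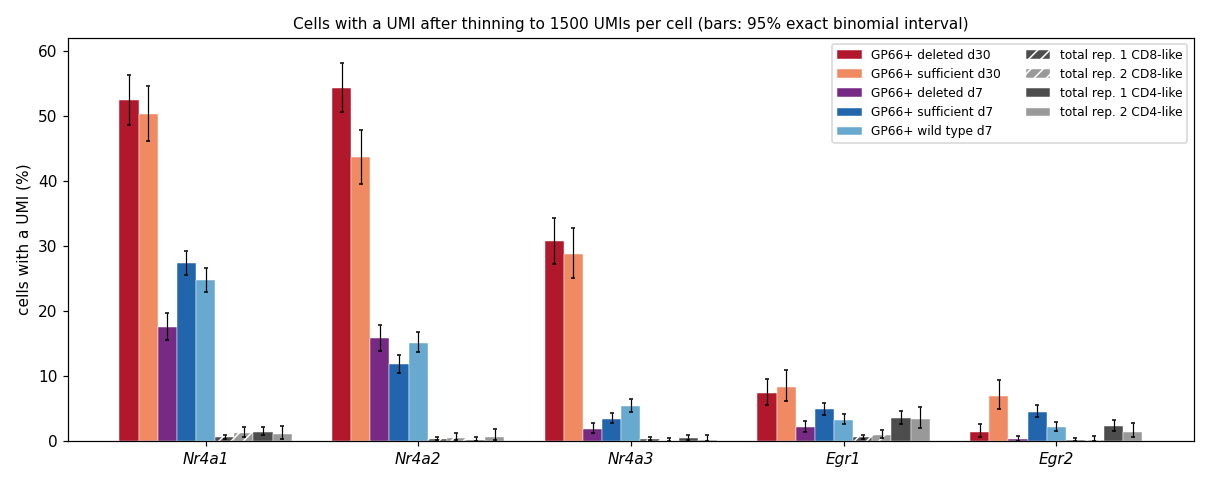
Percent of cells with a UMI of each of 5 members after thinning to 1500 UMIs a cell, per library and class, with 95% exact binomial intervals for counting error. Nr4a1 and Nr4a2 reach between 43.7% and 54.3% at day 30, and no member exceeds 3.62% in a total class.

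Members of the families were found in the same cells about as often as their shares give, or more often. All 3 Nr4a genes were seen together in 10.0% of Thpok-deleted (69 cells) and 9.62% of Thpok-sufficient cells (55 cells) of day 30, and in 0.227% to 0.362% of GP66+ cells of day 7. The expected number is the product of the shares within a library, and cells of 1 library share its depth and sort. Nr4a1 and Nr4a2 were together in 195 cells (196.7 expected) of the Thpok-deleted and 138 cells (125.9 expected) of the Thpok-sufficient library of day 30. At day 7 they were together in 49, 96 and 100 cells of the Thpok-deleted, Thpok-sufficient and wild type libraries, at 1.33, 1.38 and 1.20 times the expected number. Nr4a2 and Nr4a3 were together at 1.24 and 1.26 times the expected number at day 30 and at 2.67, 1.91 and 2.25 times at day 7, in the same order.

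Egr1 and Egr2 were together in few cells, but above the product of their shares in each GP66+ library. They shared 2 Thpok-deleted and 7 Thpok-sufficient cells of day 30 (2.71 and 2.09 times the expected number), and 1, 14 and 14 cells of day 7 (9.10, 2.88 and 8.54 times). Thinned to 1000 UMIs a cell, the median of these 5 ratios was 1.01, against 2.88 at 1500 UMIs. Without thinning the pair was together in 9 or fewer cells at day 30 and in 76 Thpok-sufficient cells of day 7, where 32.5 were expected. In total CD4-like cells the 2 genes met in 34 of 1440 and 15 of 550 unthinned cells, where 5.03 and 1.96 were expected.

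The genes whose levels ran most like each member over the 9 sums were ranked among 6216 genes by Pearson correlation of log2 of CPM plus 1, as a description. The sums share libraries and sorts. Nr4a1 ran with Dusp1 (0.995), a phosphatase of MAP kinases, Ppp1r15a (0.991) and Tnfaip3 (0.990). Nr4a2 ran with Tnfaip3 (0.995), Rgs2 (0.989) and Slc3a2 (0.989), and Nr4a3 with Per1 (0.991), Ifrd1 (0.988) and Crem (0.988). Egr1 ran with Mast4 (0.988), Churc1 (0.971) and Npepps (0.963), and Egr2 with Trib2 (0.987), Tle3 (0.985) and Cd2ap (0.979). Between members the correlation was 0.959 to 0.984 among the Nr4a genes and 0.875 for Egr1 with Egr2. Egr2 had 0.444 to 0.561 with the Nr4a genes. Egr1 lay between, with 0.771 (Nr4a1), 0.704 (Nr4a2) and 0.770 (Nr4a3). No gene was named for both families by this ranking.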

How the data were processed

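The authors deposited UMI counts for each gene in each barcode, not normalized, from 10x chemistry per the labels' protocols. Per the submitters' processing notes, bcl2fastq 2.17 and Cell Ranger were used, with mm10, and no version of Cell Ranger was given in the sources used here. The members and the gene lists were chosen with earlier results of these data known. Cells were barcodes with UMIs above 0.1 of the 99th percentile among the 3000 largest barcodes of a well, 500 genes or more and mitochondrial UMIs of no more than 10%. No doublet caller was run and doublets were not removed. B-like and myeloid-like clusters of the total libraries (scanpy 1.11.5) were left out, 189 cells (2.76%) and 12 cells (0.561%). Sums of UMI counts per library and class entered edgeR 4.0.16 in R 4.3.3 (quasi-likelihood test, TMM, filterByExpr, Benjamini-Hochberg adjustment at 0.05, two-sided). Residual degrees of freedom were 2 (GP66+ over total, genotype, day), 1 (CD8-like over CD4-like, genotype by day) and 5 (Cxcr5+ over Cxcr6+). Fold changes of low genes depend on edgeR's prior count. Standard errors are the log2 fold change over the root of F. The scripts were tested on simulated data. Classes of 1 library share their capture, and the library was their block. Intervals (95%) cover counting error only. Coordinates of windows are those of RefSeq on GRCm38.p6. No window is shown for Egr1 or Egr3, and their motifs were not examined. Alternatives were DESeq2 1.42.0, its size factors in edgeR, no filter, stricter cell calling, thinned cells, other cell classes, no block and each library left out. Named are all members and, per list, up to 4 genes with the largest change past the threshold, or 2 where none passed, of which some are printed, and the 3 genes most like each member. Pdcd1 is named besides, as a follicular helper marker.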

Additional observations from a re-analysis of the deposited data

Results flagged for a closer look

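Within intact GP66+ cells of day 7 and within another group, the Cxcr5+ over Cxcr6+ difference of 4 members ran in opposite directions, on the log2 scale of CPM plus 1. These differences between groups were not tested, and each rests on 1 or 2 libraries. In Thpok-sufficient cells of day 30 the counting intervals of Cxcr5+ and Cxcr6+ cells overlap for all 4 members. At day 7 they overlap for Nr4a2 in Thpok-sufficient cells and for Nr4a3 and Egr1 in wild type cells. Nr4a1 was at 0.82 in Thpok-deleted cells of day 7, against -0.72 in Thpok-sufficient and -0.72 in wild type cells of day 7, and at 0.35 in Thpok-sufficient cells of day 30. Nr4a2 was at -0.38 in Thpok-sufficient cells of day 30, against 0.24 in Thpok-sufficient and 0.40 in wild type cells of day 7. Nr4a3 was at -0.12 at day 30, against 0.89 and 0.52 in the same cells of day 7. Egr1 was at -1.13 at day 30, against 1.06 and 0.55 at day 7, with 8 and 18 UMIs behind the value of day 30.

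In barcodes with 1 to 10 UMIs, which no comparison used, the lowest GP66+ library had 215 CPM of Nr4a1, 95.3 CPM of Nr4a2 and 29.4 CPM of Nr4a3. The highest total library had 34.3, 12.7 and 1.73 CPM of them in the same order.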

How the results depend on the processing

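Counts of called genes moved with the setting (higher and lower in that order). For GP66+ over total cells (49 and 0) they were 128 and 50 with DESeq2, 439 and 326 with no filter, 3 lower when thinned and 2 lower with all T cells of the GP66+ libraries, and 0 to 282 and 0 to 301 with 1 library left out. For CD8-like over CD4-like cells (1915 and 1988) they were 752 and 628 with DESeq2 and 962 and 893 when thinned. For genotype (79 and 41) they were 255 and 218 with DESeq2, 419 and 372 with no filter, 26 lower under strict cell calling, 48 and 17 in cells with a Cd4 UMI, and 0 to 252 and 0 to 165 with 1 library left out. For day (1078 and 1283) they were 265 and 248 under strict calling, 836 lower when thinned, 372 and 403 in cells with a Cd4 UMI, and 0 to 1440 and 0 to 1465 with 1 library left out. For genotype by day they were 6 higher with DESeq2 and 10 higher with no filter. For Cxcr5+ over Cxcr6+ cells (1121 and 1109) they were 442 and 429 when thinned, and 698 to 1194 and 664 to 1193 with 1 library left out.

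With no replicate block for the library the counts were 524 and 624 for CD8-like over CD4-like cells and 241 and 233 for Cxcr5+ over Cxcr6+ cells. Without this pairing Egr1 (adjusted p = 0.362) and Nr4a3 (0.895) lost the Cxcr5+ call and Nr4a1 turned to 0.048, and no other member call changed.

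Directions of members turned in values that had not passed. CD8-like over CD4-like Nr4a3 was -0.12 with DESeq2 and -0.087 under strict calling. With 1 library left out, and no test, CD8-like over CD4-like Nr4a2 ran from -1.01 to 0.84 and Nr4a3 from -0.65 to 0.41, and genotype by day Egr1 from -0.38 to 0.36 and Egr2 from -0.64 to 0.62. Cxcr5+ over Cxcr6+ Nr4a1 was 0.00021 with DESeq2 and -0.43 to 0.087 with 1 library left out. The genotype value of Nr4a2 was -0.0090 to 0.064 with 1 library left out, and its genotype by day value 0.69 under strict calling. GP66+ over total Egr1 and Egr2 ranged from -0.24 to 0.62 and from -0.58 to 0.77 with 1 library left out. Nr4a2 missed the threshold in GP66+ over total cells with all T cells (adjusted p = 0.0555) and with B-like and myeloid-like cells kept (0.0612). At day 30 Egr1 (0.0683) and Egr2 (0.298) missed it under strict calling, and Egr2 (0.185) in cells with a Cd4 UMI. Under strict calling Nr4a1 was called lower (-0.40) and Nr4a2 higher (0.39) in Cxcr5+ cells. The cause of these moves was not tested. With 1 total library left out no degrees of freedom remained for CD8-like over CD4-like cells, nor for genotype by day without a library that fills its cell alone. Depth limits Egr3 and the Nr4a genes in total cells.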

Other observations

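Thpok-sufficient and wild type GP66+ cells of day 7, sorted from different genotypes, differed in members by more than counting error. Egr2 was at 27.0 CPM (95% interval 24.2 to 30.1) in Thpok-sufficient and 12.1 CPM (10.4 to 14.0) in wild type cells, and Egr1 at 36.5 CPM and 24.0 CPM. Nr4a3 was at 26.1 CPM in Thpok-sufficient and 37.5 CPM in wild type cells, the other way round. Cd69 was at 421 CPM and 343 CPM in that order, and Fos, an AP-1 factor among the dissociation genes, at 205 CPM and 96.2 CPM. With 1 library of each there is no test of these differences.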
